A study of Saccharomyces cerevisiae with 10 samples.

Results

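The heat shock protein and chaperone genes described here are 10 protein-coding genes of *Saccharomyces cerevisiae*, chosen by name. They include the Hsp70 genes *SSA1* (YAL005C), *SSA2* (YLL024C), *SSA3* (YBL075C) and *SSA4* (YER103W), the Hsp90 genes *HSP82* (YPL240C) and *HSC82* (YMR186W), the disaggregase gene *HSP104* (YLL026W), and the small heat shock protein genes *HSP42* (YDR171W) and *HSP26* (YBR072W). The last of the 10 is *HSP12* (YFL014W), which encodes a small membrane-associated protein. Each was taken as the row whose identifier contains its systematic name, and all 10 were found among 10431 counted features, of which 5376 are ORFs. The row of *SSA3* also holds YBL074C, *AAR2*, which encodes a splicing factor, so that its values are those of both genes together. Every other row held 1 gene.

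Hsp70 proteins bind exposed hydrophobic stretches of unfolded proteins and release them with the help of ATP, and Hsp90 acts later, on proteins that are close to their folded state. Hsp104 pulls proteins out of aggregates together with Hsp70, while small heat shock proteins hold unfolding proteins without using ATP. In yeast these genes are activated by the heat shock factor Hsf1, which binds heat shock elements, and many of them also by Msn2 and Msn4, which bind stress response elements when growth slows or stress sets in.

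Tags from the 3′ ends of polyadenylated RNAs (QuantSeq) were counted in 10 libraries, 2 independent biological replicates of each of 5 strains grown in YPD at 30 °C to an OD600 of 0.8. The study asked how the assembly of RNA pol II affects the level of non-coding RNAs, with the allele *rpb1-84* of the largest RNA pol II subunit, and used the loss of Rrp6, a nuclear exosome subunit, to see whether degradation was involved. The WT, *rrp6∆*, *rpb1-84 rrp6∆* and *rpb1-84* strains are MATα and share the markers *leu2-3,112* and *ura3-52*, the deletions *his3-∆200* and *trp1-∆63*, and a chromosomal *RPB1* replaced by *HIS3* (*rpb1-∆187::HIS3*). They therefore live on a multicopy 2µm *LEU2* plasmid that carries *RPB1* (pYEB220, in WT and *rrp6∆*) or *rpb1-84* (pYEB220-84, in the other 2 strains). The *rrp6∆* and *rpb1-84 rrp6∆* strains also carry *rrp6∆::KanMX4*, and the *rpb1-84* strain carries a TAP tag on *RPB4* (*RPB4::TAP::TRP1*). The *rpb4∆* strain has another background: it is MATa with *his3-∆1*, *leu2-∆0*, *met15-∆0* and *ura3-∆0* and carries *rpb4∆::kanMX4*.

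WT, *rrp6∆* and *rpb1-84 rrp6∆* belong to 1 experiment with its own WT. The *rpb1-84* and *rpb4∆* libraries were analysed in the study against WT libraries of earlier publications, which are not used here. In any comparison of the *rpb1-84* libraries with the other strains, the experiment, the TAP tag and *rpb1-84* cannot be told apart, and *rpb4∆* is given side by side with the others and without a test.

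Libraries held from 1415496 to 7268211 counts. In a principal component analysis of 3473 ORFs, the *rpb1-84* libraries stood apart from all others on the first component (49.1% of the variance) and the *rpb4∆* libraries on the second (34.7%). *RPB4* had 7 and 4 counts in *rpb4∆* and 33 and 59 in *rpb1-84*, where its end is tagged, against 508 to 1140 in the other strains. *RRP6* had 572 and 548 counts in *rrp6∆*, 290 and 176 in *rpb1-84 rrp6∆* and 231 and 171 in WT. Unlike those of *RPB4* in *rpb4∆*, these counts do not show the deletion, and the position of the tags within the gene is not known. The loss of Rrp6 is therefore taken from the strain labels throughout. *RPB1* had 7799 and 6129 counts in WT, of 3019495 and 2604141 ORF counts. It had 23955 and 22034 in *rrp6∆* (of 4115132 and 4176986) and 22487 and 17016 in *rpb1-84 rrp6∆* (of 4451360 and 3493377). These are larger shares than in WT. The *rpb1-84* libraries had 10357 and 22432 counts of *RPB1* and *rpb4∆* 532 and 402. The part of the *RPB1* level in the changes was not tested. Replicates of every strain differed by more than counting error (chi-square per feature from 1.46 to 5.01). Fewer cells that express a gene and less RNA per cell cannot be told apart in such bulk samples.

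Where a stretch of promoter carries the elements bound by Hsf1 or by Msn2 and Msn4 can be read from the reference genome. The 300 bases from 400 to 101 bases before each start codon were searched on both strands for heat shock elements of 2 units (TTCNNGAA or GAANNTTC, where N is any base), for those of 3 units (the same, followed by any 2 bases and 1 unit more, TTC and GAA in alternation, so that each also holds elements of 2 units) and for stress response elements (AGGGG or CCCCT). An element of 3 units lay in 4 of the 10 promoters (*SSA1*, *SSA2*, *HSP104* and *HSP42*) against 1.1% of 6001 yeast promoters. An element of 2 units lay in 8 of 10, against 23.6%, and a stress response element in 7 of 10, against 23.5%. The *SSA3* window held none of the 3 motifs, and part of it lies in the coding end of *AAR2*. In the 300 bases directly before the start codon, elements of 3 units, elements of 2 units and stress response elements lay in 4, 7 and 6 of the 10 promoters. These matches are letters in a window and not measured binding.

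The promoters of *HSP42*, *HSP104*, *SSA4* and *HSP12* are printed because these genes had the largest changes of the 10 in the *rpb1-84* libraries, the first pair upwards and the second downwards. They are from the RefSeq sequence of R64, all on the plus strand, written 5′ to 3′ with the motif matches in capitals. *HSP42* is at chrIV:806221-806520, *HSP104* at chrXII:88223-88522, *SSA4* at chrV:364189-364488 and *HSP12* at chrVI:106856-107155.
HSP42: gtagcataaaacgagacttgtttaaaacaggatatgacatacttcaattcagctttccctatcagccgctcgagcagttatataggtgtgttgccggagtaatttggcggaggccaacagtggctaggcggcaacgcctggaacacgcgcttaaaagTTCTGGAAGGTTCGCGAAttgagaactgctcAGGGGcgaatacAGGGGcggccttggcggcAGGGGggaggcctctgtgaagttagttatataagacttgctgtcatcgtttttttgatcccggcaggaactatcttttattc
HSP104: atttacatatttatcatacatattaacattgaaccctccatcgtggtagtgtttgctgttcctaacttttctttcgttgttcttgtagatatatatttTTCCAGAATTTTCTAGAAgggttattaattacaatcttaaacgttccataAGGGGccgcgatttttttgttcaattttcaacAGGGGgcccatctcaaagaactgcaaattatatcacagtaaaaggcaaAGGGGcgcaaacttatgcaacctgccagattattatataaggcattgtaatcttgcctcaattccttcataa
SSA4: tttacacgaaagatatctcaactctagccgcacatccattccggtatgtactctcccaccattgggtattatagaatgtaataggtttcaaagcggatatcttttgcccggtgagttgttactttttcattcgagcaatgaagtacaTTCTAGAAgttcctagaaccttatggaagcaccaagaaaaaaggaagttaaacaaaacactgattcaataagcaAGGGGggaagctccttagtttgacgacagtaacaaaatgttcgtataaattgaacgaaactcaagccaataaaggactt
HSP12: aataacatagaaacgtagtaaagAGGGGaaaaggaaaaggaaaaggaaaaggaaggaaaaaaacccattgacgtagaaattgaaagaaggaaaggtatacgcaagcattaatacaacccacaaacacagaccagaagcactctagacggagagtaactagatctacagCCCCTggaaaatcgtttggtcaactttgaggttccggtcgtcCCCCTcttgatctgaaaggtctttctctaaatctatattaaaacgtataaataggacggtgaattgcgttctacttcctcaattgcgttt
The promoters of *HSP42* and *HSP104* each hold 2 overlapping elements of 3 units and 3 stress response elements. That of *SSA4* holds 1 element of 2 units and 1 stress response element, and that of *HSP12* holds 3 stress response elements and no heat shock element. The promoter of *SSA1*, not printed, holds 3 elements of 3 units and 2 stress response elements. *SSA1* had a log2 fold change of −0.63 in *rpb1-84* against WT. A part of these elements in the changes was not tested.

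**Figure D1:**
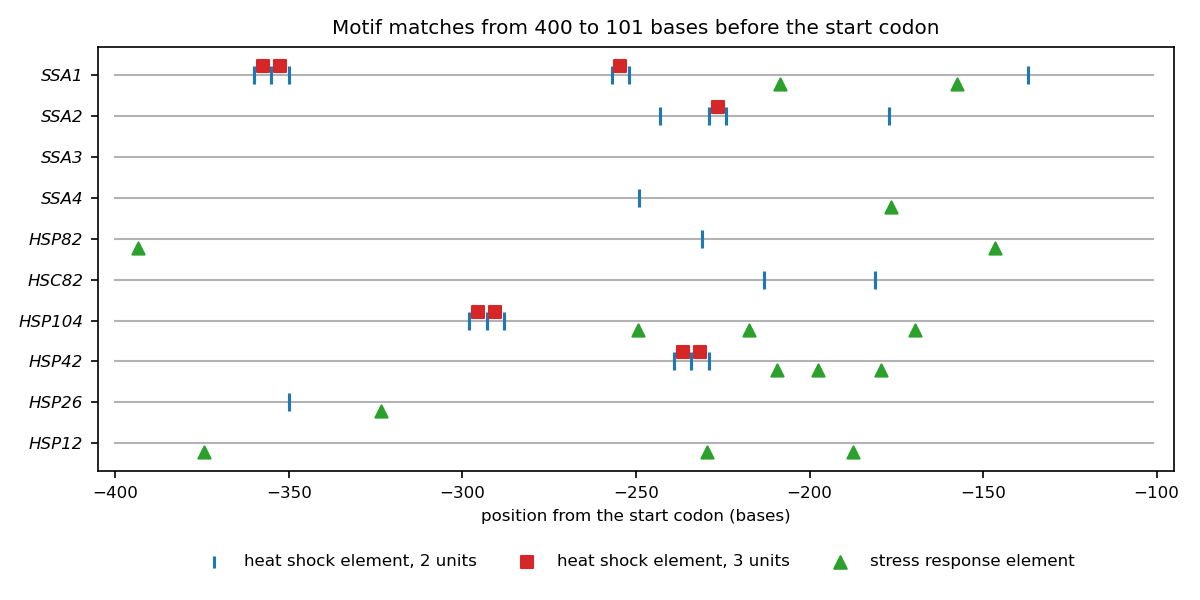
Motif matches in the promoters of the 10 genes, by position from the start codon in bases (x axis) and gene (y axis). Blue ticks are heat shock elements of 2 units, red squares those of 3 units and green triangles stress response elements. The window of *SSA3* is empty, and *HSP12* has 3 triangles and no heat shock element.

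Levels are given per library in the order of the replicates, as normalised CPM, that is counts relative to the library size after scaling with factors from ORFs. The orders and overlaps of strains below are those under this scaling. With factors from all features several of them differed. A 3′ tag count is not scaled by length, so that levels were compared between strains and not between genes. The 10 genes together took 0.731% and 0.711% of the ORF counts in WT, 0.875% and 0.843% in *rrp6∆*, 0.936% and 1.008% in *rpb1-84 rrp6∆*, 0.512% and 0.562% in *rpb1-84* and 0.885% and 0.891% in *rpb4∆*. This sum is dominated by *HSC82*, *SSA1* and *HSP82* and hides changes of the less abundant genes, several of which moved further.

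*SSA1* and *SSA2* encode the Hsp70 proteins that are present in unstressed cells. *SSA1* stood at 1480 and 1473 normalised CPM in WT, 1278 and 1249 in *rrp6∆*, 1700 and 1915 in *rpb1-84 rrp6∆*, 894 and 1010 in *rpb1-84* and 1755 and 1826 in *rpb4∆*. The double mutant and *rpb4∆* overlapped at the top, and *rpb1-84* was the lowest strain. With factors from all features the double mutant (1258 and 1411) lay below *rpb4∆* (1943 and 1999). There *rrp6∆* was the lowest strain, at 856 and 841 against 909 and 1033 in *rpb1-84*. *SSA2* had the smallest span of the 10 genes, 1.83-fold between the highest and the lowest strain mean. Its level was 902 and 869 normalised CPM in WT, 716 and 716 in *rrp6∆*, 683 and 748 in *rpb1-84 rrp6∆*, 864 and 805 in *rpb1-84* and 1229 and 1384 in *rpb4∆*, the highest strain.

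*SSA4* encodes an Hsp70 that is made under stress, as does *SSA3*. *SSA4* stood at 73.9 and 73.6 normalised CPM in WT, 89.5 and 75.3 in *rrp6∆*, 116 and 117 in *rpb1-84 rrp6∆*, 18.8 and 19.9 in *rpb1-84* and 11.1 and 14.6 in *rpb4∆*. The last pair of strains lay far below the rest, with a 9.07-fold span between the highest and the lowest strain mean. In *rpb4∆* these values rest on 19 and 18 counts. The row shared by *SSA3* and *AAR2* ran from 50.9 and 41.7 normalised CPM in WT, the lowest strain, to 90.9 and 89.6 in *rpb1-84*, the highest, with 75.5 and 74.0 in *rrp6∆*, 60.2 and 62.1 in *rpb1-84 rrp6∆* and 67.1 and 69.6 in *rpb4∆*.

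*HSC82* encodes the Hsp90 of unstressed cells and *HSP82* the Hsp90 that heat raises further. *HSP82* stood at 920 and 904 normalised CPM in WT, 1493 and 1531 in *rrp6∆*, 2439 and 2560 in *rpb1-84 rrp6∆*, 1049 and 1264 in *rpb1-84* and 1850 and 1574 in *rpb4∆*. WT was the lowest strain and the double mutant the highest, and no neighbouring pair of strains in that order overlapped. With factors from all features WT stayed the lowest, but the double mutant (1805 and 1887) overlapped *rpb4∆* (2048 and 1724). There *rpb1-84* (1066 and 1294) lay above *rrp6∆* (999 and 1031). *HSC82* had another order, with 3293 and 3134 normalised CPM in WT, 3121 and 3118 in *rrp6∆*, 3121 and 3515 in *rpb1-84 rrp6∆*, 1415 and 1378 in *rpb1-84* and 4452 and 4724 in *rpb4∆*. The *rpb1-84* libraries were the lowest for *HSC82*, and the double mutant and WT overlapped.

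*HSP104*, the disaggregase gene, stood at 218 and 188 normalised CPM in WT, 200 and 245 in *rrp6∆*, 278 and 326 in *rpb1-84 rrp6∆*, 464 and 556 in *rpb1-84* and 229 and 206 in *rpb4∆*. WT, *rrp6∆* and *rpb4∆* formed a low group in which the neighbours in the order overlapped. The 2 strains with *rpb1-84* lay above it. With factors from all features the double mutant (205 and 240) overlapped WT (209 and 183) and *rpb4∆* (254 and 226).

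Among the small heat shock protein genes, *HSP42*, whose product gathers misfolded proteins into assemblies, stood at 97.5 and 88.1 normalised CPM in WT, 202 and 204 in *rrp6∆*, 417 and 417 in *rpb1-84 rrp6∆*, 277 and 344 in *rpb1-84* and 80.0 and 83.3 in *rpb4∆*. No strains that follow each other in the order of their means overlapped. With factors from all features the double mutant (308 and 307) overlapped *rpb1-84* (281 and 352). WT (93.6 and 85.9) then also overlapped *rpb4∆* (88.5 and 91.2). *HSP26*, which encodes a chaperone that heat activates, stood at 119 and 99.4 normalised CPM in WT, 109 and 106 in *rrp6∆*, 103 and 110 in *rpb1-84 rrp6∆*, 160 and 224 in *rpb1-84* and 31.5 and 31.6 in *rpb4∆*. WT, *rrp6∆* and the double mutant could not be ordered, *rpb1-84* lay above them and *rpb4∆* below.

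*HSP12* encodes a small membrane-associated protein that is made under many stresses and as glucose runs out, and it had the widest span of the 10 genes, 13.9-fold. It stood at 293 and 346 normalised CPM in WT, 355 and 290 in *rrp6∆*, 205 and 124 in *rpb1-84 rrp6∆*, 28.4 and 30.7 in *rpb1-84* and 22.2 and 24.3 in *rpb4∆*. WT and *rrp6∆* overlapped, and the replicates of the double mutant were further apart than those of any other strain. In *rpb4∆* the values rest on 38 and 30 counts.

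**Figure D2:**
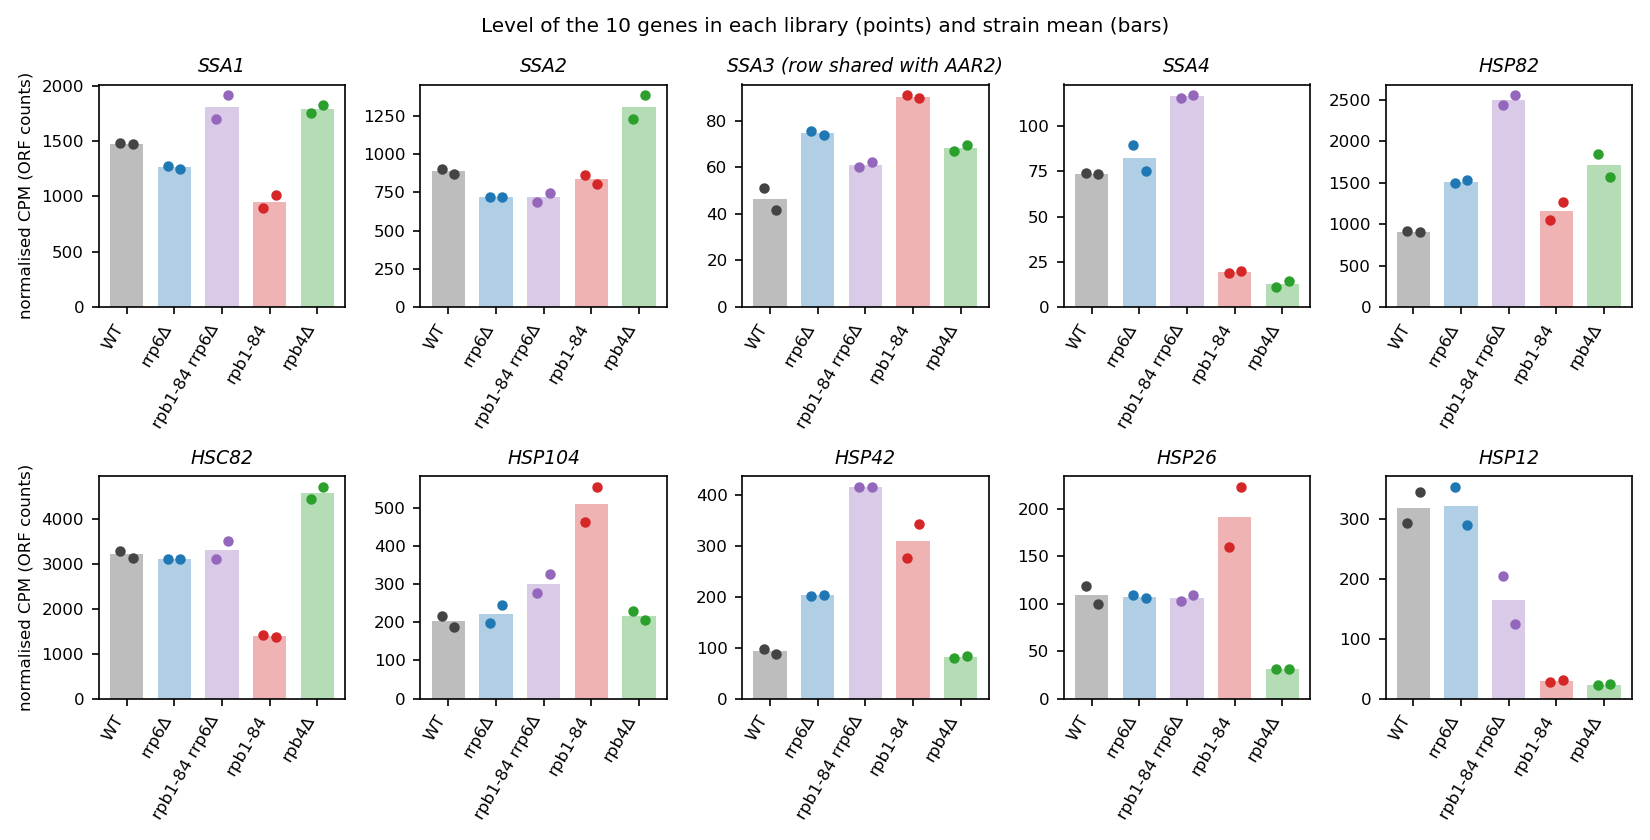
Level of each gene in normalised CPM (y axis, from 0, scaled to each gene) by strain (x axis), with points for the 2 libraries and bars for their mean. *HSP12* and *SSA4* are low in both the *rpb1-84* and the *rpb4∆* libraries, *HSP42* is highest in *rpb1-84 rrp6∆* and *HSP104* and *HSP26* in *rpb1-84*. Levels are scaled with factors from ORFs, and the place of *HSP42* depends on this.

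The comparison of *rrp6∆* with WT asks what differs without Rrp6 when the plasmid carries *RPB1*. *HSP42* was the gene that rose, 2.19-fold (log2 fold change 1.13 ± 0.10 SE, n = 2 against 2, adjusted p = 1.02e-11, edgeR quasi-likelihood test with Benjamini-Hochberg adjustment over 9197 features). Genes were called where the adjusted p was below 0.1 and the log2 fold change was beyond 1 in either direction. Thus 1 of the 10 genes was called higher and 0 lower, where 7.55% of the 5178 ORFs tested were called higher and 1.35% lower. By the adjusted p alone, 5 of 10 passed, 3 upwards and 2 downwards, where 53.6% of ORFs did.

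The 4 genes that passed on the adjusted p without reaching the fold threshold were the Hsp90 gene *HSP82* with a log2 fold change of 0.73 (adjusted p = 2.98e-09 in edgeR), the row of *SSA3* with 0.68 (1.60e-05), *SSA2* with −0.30 (0.0019) and *SSA1* with −0.22 (0.0218). The other 5 did not pass. For *HSC82* the 95% interval of the log2 fold change was −0.21 to 0.13, for *HSP26* −0.23 to 0.18, for *HSP12* −0.23 to 0.27, for *HSP104* −0.07 to 0.34 and for *SSA4* −0.06 to 0.38. The median over the 10 genes was 0.08, against 0.00145 over the ORFs tested.

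The call of *HSP42* rests on scaling by ORFs. When the scaling factors came from all features, of which 39.0% were called higher in *rrp6∆*, the ORF median shifted to −0.48 and the log2 fold change of *HSP42* to 0.64 (adjusted p = 8.97e-07 in edgeR), below the fold threshold. Under that scaling 7 of the 10 genes lay below 0 and passed on the adjusted p, *SSA2* (−0.79), *SSA1* (−0.71), *HSC82* (−0.53), *HSP26* (−0.51), *HSP12* (−0.47), *HSP104* (−0.35) and *SSA4* (−0.32). *HSP42* and *HSP82* (0.24) passed upwards, and the row of *SSA3* (0.20) did not pass.

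The comparison of *rpb1-84 rrp6∆* with WT covers both changes at once, within the same experiment. *HSP42* rose 4.44-fold (log2 fold change 2.15 ± 0.10 SE, adjusted p = 5.22e-19 in edgeR) and *HSP82* 2.72-fold (1.44 ± 0.08, adjusted p = 4.51e-16). These were the 2 of 10 genes called higher, and 0 were called lower, where 6.99% of the ORFs were called higher and 2.65% lower. In rank among the 5178 ORFs tested, *HSP42* was number 78 from the highest log2 fold change and *HSP82* number 194.

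By the adjusted p alone, 6 genes were higher and 2 lower, where 56.9% of ORFs passed. Below the fold threshold were *SSA4* with a log2 fold change of 0.65 (adjusted p = 7.44e-06), *HSP104* with 0.56 (2.87e-05), the row of *SSA3* with 0.38 (0.0125), *SSA1* with 0.28 (0.0046), *SSA2* with −0.32 (0.0014) and *HSP12* with −0.95 (2.62e-07), all from edgeR. The direction of *SSA1* turned with scaling factors from all features, to −0.06, while those of the other 5 stayed. *HSP12* was close to the threshold, and leaving out 1 library changed its call. Its log2 fold change was −1.37 without replicate 1 of the double mutant and −1.07 without replicate 1 of WT, both called lower, but −0.65 without replicate 2 of the double mutant, and it ranged between these with the other libraries left out. *HSC82* (95% interval −0.13 to 0.20) and *HSP26* (−0.27 to 0.15) did not pass. The median over the 10 genes was 0.33, against 0.00156 over the ORFs.

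In the comparison of *rpb1-84 rrp6∆* with *rrp6∆*, *rpb1-84* is the difference, both strains are labelled *rrp6∆* and neither carries the TAP tag. *HSP42* rose 2.03-fold (log2 fold change 1.02 ± 0.08 SE, adjusted p = 3.23e-11 in edgeR) and was number 54 of 5178 ORFs from the highest. It was the 1 of 10 called higher, with 0 called lower, where 1.10% of ORFs were called higher and 2.99% lower. Its log2 fold change stayed between 1.01 and 1.03 with each library left out in turn, and its margin over the threshold is as small as that.

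By the adjusted p alone, 5 genes were higher and 2 lower, where 48.4% of ORFs passed. *HSP82* had a log2 fold change of 0.71 (adjusted p = 2.45e-08 in edgeR), *SSA1* of 0.50 (1.32e-05), *SSA4* of 0.48 (0.000267) and *HSP104* of 0.42 (0.000944). On the other side were the row of *SSA3* with −0.30 (0.0276) and *HSP12* with −0.97 (4.50e-07). Without replicate 1 of the double mutant the value of *HSP12* was −1.39, and without replicate 2 of *rrp6∆* it was −1.10, so that it was called lower in both cases, while without replicate 2 of the double mutant it was −0.67. *SSA2* (95% interval −0.18 to 0.15), *HSC82* (−0.09 to 0.24) and *HSP26* (−0.23 to 0.16) did not pass. The comparisons within this experiment share libraries, and their values are therefore not independent of each other.

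The *rpb1-84* libraries differed from those of WT in both directions. *HSP12* was 10.6-fold lower (log2 fold change −3.41 ± 0.16 SE, adjusted p = 2.22e-20 in edgeR over 9264 features of 8 libraries), number 61 of 5206 ORFs from the lowest. *SSA4* was 3.76-fold lower (−1.91 ± 0.14, adjusted p = 2.13e-14) and *HSC82* 2.29-fold lower (−1.20 ± 0.09, adjusted p = 5.75e-14). *HSP42* was 3.37-fold higher (1.75 ± 0.11, adjusted p = 3.94e-16) and *HSP104* 2.53-fold higher (1.34 ± 0.11, adjusted p = 6.47e-13). Of the Hsp70 and Hsp90 genes, a copy made under stress (*SSA4*) and a copy of unstressed cells (*HSC82*) were thus the ones called, both lower.

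So 2 of 10 genes were called higher and 3 lower, where 14.8% of ORFs were called higher and 16.5% lower. On the adjusted p alone 9 of 10 passed, 5 higher and 4 lower, where 71.9% of ORFs did. The row of *SSA3* (log2 fold change 0.96), *HSP26* (0.83), *HSP82* (0.35) and *SSA1* (−0.63) did so without the fold, and *SSA2* (95% interval −0.26 to 0.09) did not pass. *SSA3* crossed the threshold, and 3 genes were called higher, with scaling factors from all features (1.11) or DESeq2 size factors (1.09) and in DESeq2 (1.09). It also crossed without replicate 1 of WT (1.13) and *HSP26* without replicate 1 of *rpb1-84* (1.05). The experiment and the tag cannot be told apart from *rpb1-84* here.

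**Figure D3:**
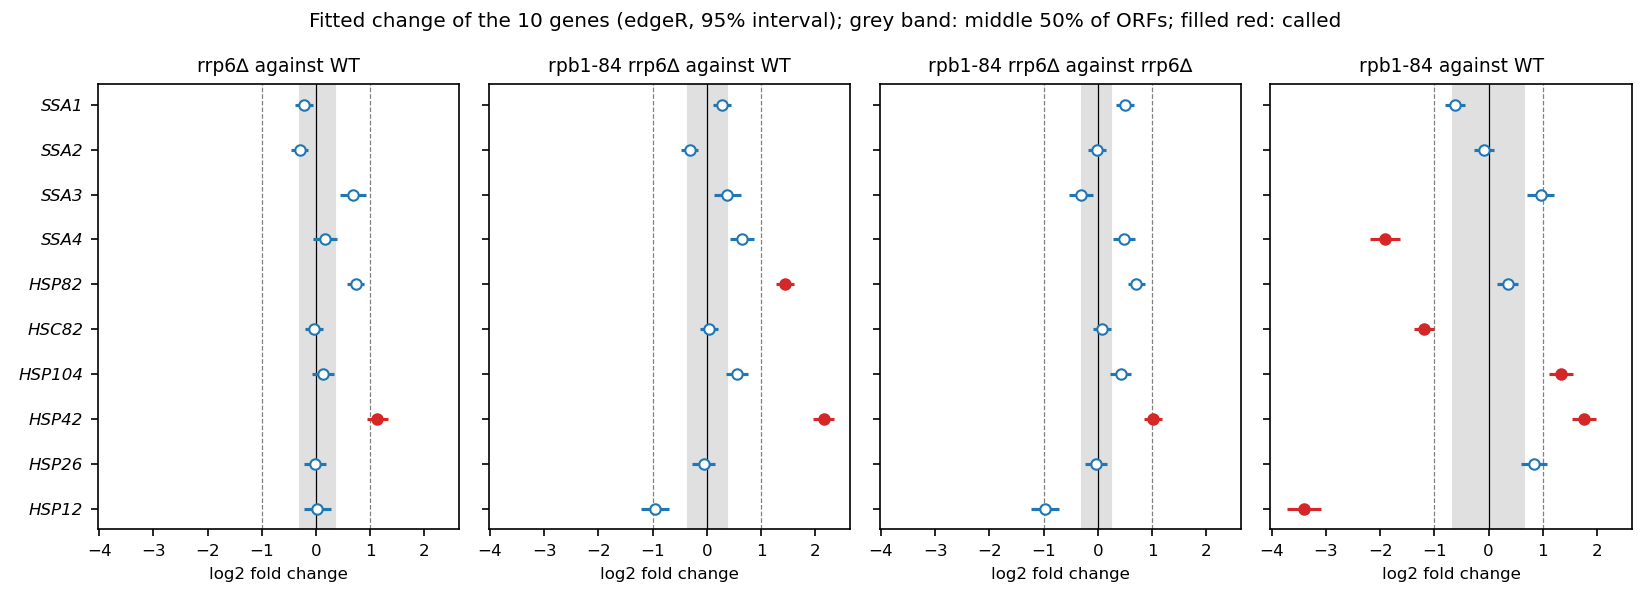
Fitted log2 fold change of the 10 genes (x axis) in 4 comparisons, with 95% intervals from edgeR; dashed lines mark the fold threshold, the grey band the range between the quartiles of the ORFs tested and filled red points the genes called. *HSP42* is filled in all 4 panels, and *HSP12* reaches −3.41 in *rpb1-84* against WT.

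Against *rpb1-84*, the double mutant had 4 genes called higher and 0 lower, where 17.1% of ORFs were called higher and 12.0% lower. *SSA4* was 5.87-fold higher (log2 fold change 2.55 ± 0.13 SE, adjusted p = 7.09e-20 in edgeR), *HSP12* 5.49-fold (2.46 ± 0.16, adjusted p = 1.44e-16), *HSC82* 2.35-fold (1.23 ± 0.09, adjusted p = 9.43e-15) and *HSP82* 2.13-fold (1.09 ± 0.10, adjusted p = 6.65e-13). All 10 passed on the adjusted p alone, 6 higher and 4 lower, where 75.6% of ORFs did. With scaling factors from all features *HSP82* (0.60) and *HSC82* (0.74) were no longer called, while the row of *SSA3* (−1.07), *HSP104* (−1.27) and *HSP26* (−1.38) were called lower.

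Whether *rpb1-84* went with the same change with and without Rrp6 was tested as the difference between (*rpb1-84 rrp6∆* against *rrp6∆*) and (*rpb1-84* against WT). The difference passed both thresholds for 4 genes upwards and 1 downwards, where 14.2% and 13.9% of ORFs did. By the adjusted p alone it passed for 5 upwards and 4 downwards, where 60.8% of ORFs did. It was 2.44 ± 0.21 on the log2 scale for *HSP12* (adjusted p = 1.83e-12 in edgeR), 2.39 ± 0.18 for *SSA4* (7.04e-14), 1.27 ± 0.13 for *HSC82* (2.09e-10), 1.13 ± 0.13 for *SSA1* (5.50e-09) and −1.26 ± 0.17 for the row of *SSA3* (1.03e-07). For *HSP12*, for example, the strains with *rpb1-84* were lower than their counterparts in both cases, with log2 fold changes of −0.97 without Rrp6 and −3.41 with it. *HSP42* had a difference of −0.73 (0.000143), below the fold threshold, and was called higher on both sides. For *SSA2* the 95% interval of the difference was −0.18 to 0.32. The experiment and the TAP tag differ between the same libraries and cannot be told apart from this difference.

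The *rpb4∆* strain lacks the subunit whose association with RNA pol II *rpb1-84* alters, and its values stand beside those of *rpb1-84* without a test. *HSP12* had 22.2 and 24.3 normalised CPM in *rpb4∆* and 28.4 and 30.7 in *rpb1-84*, and *SSA4* 11.1 and 14.6 against 18.8 and 19.9. Both genes were thus at the low end in each of the 2 strains. *HSC82*, *HSP104*, *HSP42* and *HSP26* stood apart: *HSC82* was at its highest of the 5 strains in *rpb4∆* and at its lowest in *rpb1-84*, and *HSP26* and *HSP42* were at their lowest in *rpb4∆*. For *HSP42* this rests on scaling by ORFs, as WT and *rpb4∆* overlapped with factors from all features. The backgrounds, mating types and experiments of these strains differ, which cannot be told apart from the mutations.

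*SSA1* and *SSA2*, and *HSP82* and *HSC82*, are near copies, and how reads that map to more than 1 place were counted is not given in the sources used here. The coding sequences of *SSA1* and *SSA2* are 96.4% identical, with 383 identical bases in a row at most, but the 200 bases after their stop codons, nearer to where 3′ tags fall, are 52.6% identical with at most 12 in a row. For *HSP82* and *HSC82* these values were 91.7% (113 in a row) and 46.2% (7 in a row), and for *SSA3* and *SSA4* 76.7% (17 in a row) and 45.1% (9 in a row).

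Ratios of counts within a library do not depend on the scaling. The ratio of *HSP82* to *HSC82* was 0.279 and 0.289 in WT, 0.478 and 0.491 in *rrp6∆*, 0.781 and 0.729 in *rpb1-84 rrp6∆*, 0.741 and 0.917 in *rpb1-84* and 0.416 and 0.333 in *rpb4∆*. The ratio was thus higher than in WT in all 4 mutants, most in the 2 strains with *rpb1-84*, which overlapped. In the double mutant *HSP82* was 2.72-fold higher than in WT and *HSC82* 1.02-fold. In *rpb1-84* *HSP82* was 1.27-fold higher and *HSC82* 2.29-fold lower. The *rpb1-84* and *rpb4∆* libraries come from other experiments than this WT, and the tag or background cannot be told apart from the mutations. The ratio of *SSA1* to *SSA2* was 1.64 and 1.70 in WT, 1.79 and 1.74 in *rrp6∆*, 2.49 and 2.56 in *rpb1-84 rrp6∆*, 1.04 and 1.25 in *rpb1-84* and 1.43 and 1.32 in *rpb4∆*. Here the 2 strains with *rpb1-84* lay at opposite ends. With 2 libraries a strain, the smallest p that an exact two-sided permutation test can give for a ratio is 0.333.

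**Figure D4:**
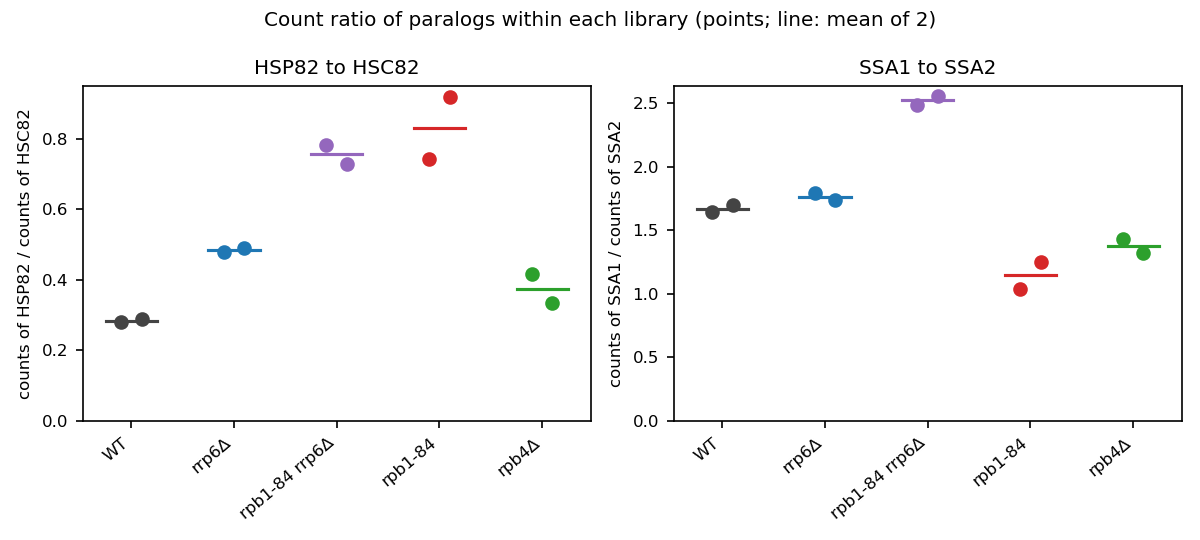
Ratio of the counts of *HSP82* to *HSC82* (left) and of *SSA1* to *SSA2* (right) within each library (y axis, from 0) by strain, with points for libraries and lines for the mean of 2. All mutants lie above WT on the left, and *rpb1-84 rrp6∆* is highest and *rpb1-84* lowest on the right.

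The ratio of *HSP42* to *HSP12* counts was 0.333 and 0.255 in WT, 0.569 and 0.703 in *rrp6∆*, 2.03 and 3.36 in *rpb1-84 rrp6∆*, 9.74 and 11.2 in *rpb1-84* and 3.61 and 3.43 in *rpb4∆*. The ratio was lowest in WT and highest in *rpb1-84*, while the ranges of *rpb1-84 rrp6∆* and *rpb4∆* did not overlap.

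Genes that work with the 10, or that respond to the same factors, were counted by list beside the same background of ORFs. Of 9 partners of Hsp70, 1 was called higher in *rrp6∆* against WT and 2 in *rpb1-84 rrp6∆* against WT, with 0 lower. Of the ORFs, 7.55% were called higher and 1.35% lower in the first comparison and 6.99% and 2.65% in the second. *SIS1*, a J-domain protein that hands substrates to Hsp70, had 72.5 and 67.0 normalised CPM in WT, 125 and 162 in *rrp6∆*, 201 and 205 in the double mutant, 268 and 327 in *rpb1-84* and 263 and 244 in *rpb4∆*. It rose by a log2 fold change of 1.04 in *rrp6∆* (adjusted p = 2.88e-09 in edgeR), 1.52 in the double mutant (3.97e-13) and 2.10 in *rpb1-84* (3.18e-17), each against WT. In *rpb1-84* against WT 3 of the 9 partners were called higher and 1 lower, where 14.8% of ORFs were called higher and 16.5% lower. The experiment and the TAP tag cannot be told apart from *rpb1-84* there. *FES1*, which encodes a nucleotide exchange factor of Hsp70, rose by 1.40 in the double mutant (adjusted p = 4.06e-14). The call of *SIS1* in *rrp6∆*, the 1 of this list there, was lost under each of the other 4 scalings or tools, with 0.55 to 0.87, while both genes stayed called in the double mutant.

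Of 7 other heat shock genes, 2 were called higher in *rrp6∆* and 3 in the double mutant against WT, with 0 lower. Of the ORFs, 7.55% and 6.99% were called higher. In *rpb1-84* against WT 2 of the 7 were called higher and 2 lower, where 14.8% and 16.5% of ORFs were. *BTN2*, whose product sorts aggregated proteins, had 90.8 and 88.5 normalised CPM in WT, 209 and 207 in *rrp6∆* and 306 and 275 in the double mutant, log2 fold changes of 1.21 and 1.69 (edgeR adjusted p = 2.23e-12 and 6.25e-16). *HSP30*, a plasma membrane heat shock protein, rose by 1.79 and 2.10 (adjusted p = 1.63e-06 and 7.46e-08) from 14 and 17 counts in WT. *CUR1*, which encodes a sorting factor related to Btn2, rose by 1.16 in the double mutant (adjusted p = 6.14e-06). The list did not rise as a whole. *HSP150* fell without reaching the fold threshold, by −0.52 in *rrp6∆* and −0.70 in the double mutant (edgeR adjusted p = 2.64e-06 and 1.24e-08). With scaling factors from all features the list had 1 gene called higher and 1 lower in *rrp6∆* and 2 higher and 1 lower in the double mutant, as *BTN2* in *rrp6∆* (0.73) and *CUR1* in the double mutant (0.82) were no longer called.

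Of 12 partners of Hsp90, 2 were called higher in *rrp6∆*, and 2 higher and 1 lower in the double mutant, all of them with few counts. Of the ORFs, 7.55% were called higher in *rrp6∆*, and 6.99% higher and 2.65% lower in the double mutant. *TAH1* had 2 and 2 counts in WT, 36 and 41 in *rrp6∆* and 19 and 16 in the double mutant. *SBA1*, the p23 co-chaperone, had 10 and 10, 64 and 63, and 38 and 42 counts. *PPT1*, an Hsp90 phosphatase, had 29 and 15 counts in WT and 14 and 15 in the double mutant. With scaling factors from all features 1 gene was also called lower in *rrp6∆*. In *rpb1-84* against WT, 0 of the 12 were called higher and 4 lower, or 2 and 4 with factors from all features. There 14.8% of ORFs were called higher and 16.5% lower.

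The general stress genes are targets of Msn2 and Msn4. Of 30 measured, 0 were called in *rrp6∆* against WT, where 7.55% of ORFs were called higher and 1.35% lower. By the adjusted p alone 15 passed, where 53.6% of ORFs did, and the median log2 fold change was 0.0046 in edgeR. In the double mutant 1 was called higher (*TMA10*, a ribosome-associated stress protein, 1.10, adjusted p = 6.11e-07) and 0 lower, with a median of 0.16. There 6.99% of ORFs were called higher and 2.65% lower. These counts depend on the scaling: with factors from all features 6 were called lower in *rrp6∆* (median −0.48), and 0 higher and 1 lower in the double mutant (median −0.18). Under that scaling 595 of 5178 ORFs were called lower in *rrp6∆*, with an ORF median of −0.485. In the double mutant 220 ORFs were called higher and 477 lower, with an ORF median of −0.34. *HSF1*, the gene of the heat shock factor, had log2 fold changes of 0.54 in *rrp6∆* (adjusted p = 0.000429) and 0.64 in the double mutant (6.17e-05), below the fold threshold, and rose by 1.54 in *rpb1-84* against WT (7.71e-14). Its list of 7 stress regulators went both ways in that last comparison. There 2 were called higher and 2 lower (*GIS1* with −1.34 and *SKN7* with −1.21), and the list median was −0.785. In *rpb1-84* against WT 9 of the 30 general stress genes were called higher and 4 lower (12 and 4 with factors from all features), where 14.8% of ORFs were called higher and 16.5% lower.

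Of 12 tested genes that are raised when glucose runs out, listed as a sign of the state of the cultures, 3 were called higher in *rrp6∆* and 4 in the double mutant against WT, with 0 lower. Of the ORFs, 7.55% and 6.99% were called higher. By the adjusted p alone 4 of the 12 passed in *rrp6∆* and 7 in the double mutant, where 53.6% and 56.9% of ORFs did. With scaling factors from all features the calls of the list were 2 higher in *rrp6∆*, and 2 higher and 1 lower in the double mutant. The list median then went from 0.59 to 0.109 in *rrp6∆* and from 0.876 to 0.539 in the double mutant. The ORF medians were −0.485 and −0.34 there. The summed level of the list, with the gene not tested (13 in all), was 110 and 106 normalised CPM in WT, 159 and 155 in *rrp6∆*, 161 and 150 in the double mutant, 156 and 175 in *rpb1-84* and 128 and 133 in *rpb4∆*. These sums rest on scaling by ORFs and were not made with factors from all features. *ICL1*, isocitrate lyase, had 39 and 32 counts in WT, 154 and 166 in *rrp6∆* and 201 and 129 in the double mutant, and *ADH2*, alcohol dehydrogenase of ethanol use, had 20 and 12, 111 and 91, and 70 and 67. No gene of the list was at 0 counts in these 3 strains. The part of culture state in the changes of *HSP42* and *HSP82* was not tested.

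**Figure D5:**
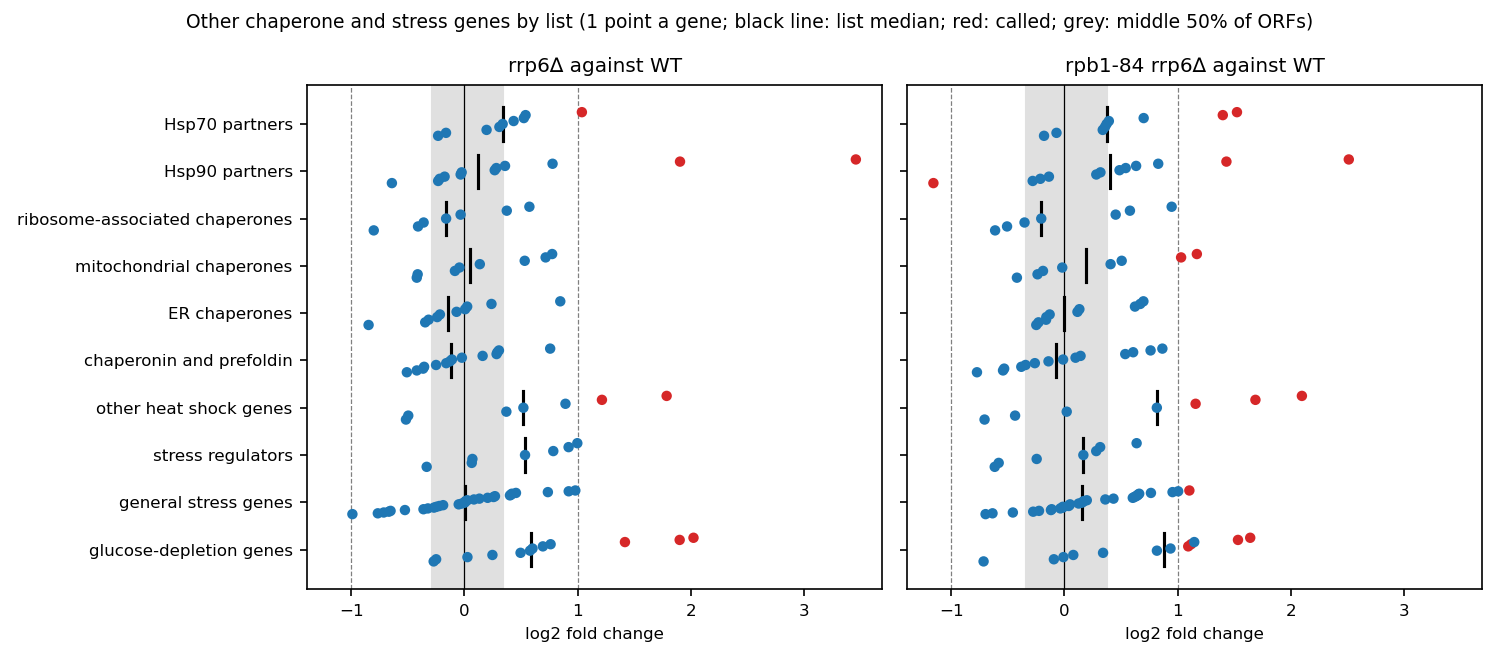
Log2 fold change (x axis) of the genes of each list (y axis) in *rrp6∆* and *rpb1-84 rrp6∆* against WT, with 1 point a gene, a black line for the list median, red for genes called and a grey band between the quartiles of the ORFs. Calls lie in the lists of Hsp70 and Hsp90 partners, other heat shock and glucose-depletion genes in both panels, and in the right panel also among mitochondrial chaperones and general stress genes.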

How the data were processed

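The authors deposited counts of reads per annotated feature, without normalisation, made per the labels and the paper with FastQC, HISAT2, the R64 genome and featureCounts. The sources used here do not give the strand setting, how multi-mapped reads were counted or the versions of these tools. Counts from 10 libraries of 5 strains, 2 replicates each, were fitted with edgeR 4.0.16 (filterByExpr, quasi-likelihood test, Benjamini-Hochberg adjustment) in R 4.3.3. The fits took 6 libraries for the rrp6 experiment (9197 features) and 8 for comparisons with *rpb1-84* (9264). TMM factors came from ORFs, because the members are mRNAs and many ncRNAs rise without Rrp6. Features with an adjusted p below 0.1 and a log2 fold change beyond 1 in either direction were called. Standard errors were derived from the log2 fold change and its F statistic. Tables were handled with pandas 2.3.3, scipy 1.17.1 and numpy 2.4.6 and drawn with matplotlib 3.10.9, all in Python 3.11.15. Sequences were read from the RefSeq genome (R64). The statistics were tested on simulated counts.

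The 10 members and the lists of related genes were chosen with earlier results of these data known. Named are all members, at most 3 called genes per list and comparison whose libraries do not overlap, *RRP6*, *RPB4* and *RPB1*, and the 3 ORFs most like *HSP12*, *HSP26*, *SSA4* and *HSP82*. Alternatives were TMM over all features, DESeq2 size factors, total counts, DESeq2 1.42.0, no filter, a replicate block, only the libraries compared, other thresholds and each library left out. The replicate numbers do not pair the libraries, as correlations of the deviations of same-numbered libraries were from −0.14 to 0.0716. P-values set a difference against the spread between replicate cultures, 2 a strain. That spread was estimated over all strains of a fit and moderated across features.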

Additional observations from a re-analysis of the deposited data

Results flagged for a closer look

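For 5 genes the change that went with *rpb1-84* differed between strains without and with Rrp6, by edgeR's test of that difference over 8 libraries. The difference on the log2 scale was 2.44 for *HSP12*, 2.39 for *SSA4*, 1.27 for *HSC82*, 1.13 for *SSA1* and −1.26 for the row of *SSA3*. With each library left out in turn it stayed between 2.02 and 2.75 for *HSP12*, 2.29 and 2.54 for *SSA4*, 1.19 and 1.36 for *HSC82*, 1.04 and 1.23 for *SSA1*, and −1.42 and −1.13 for *SSA3*. The *rpb1-84* libraries come from another experiment and carry the TAP tag, which cannot be told apart from the difference.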

How the results depend on the processing

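Dropping the fold threshold changed all 12 counts of members called. It moved 9 of them to or from 0 or by a large ratio, and changed the other 3 by less. In the same sense each of the 4 other scalings or tools moved 3 or 4. Smaller changes are not in these numbers, such as that of the members called higher in *rpb1-84* against WT with factors from all features. With TMM factors from all features the ORF median was −0.485 in *rrp6∆* against WT, −0.34 in the double mutant against WT and −0.489 in it against *rpb1-84*, and the ORFs called went from 391 higher and 70 lower to 216 and 595, from 362 and 137 to 220 and 477, and from 892 and 626 to 537 and 1468. In the double mutant against *rrp6∆* they went from 57 and 155 to 109 and 101, and in *rpb1-84* against WT from 771 and 858 to 976 and 735. For the members, the values under TMM from all features, DESeq2 size factors, total counts and DESeq2 in turn changed sign as follows. In *rrp6∆* against WT, *SSA4* had −0.32, −0.32, −0.0077 and −0.32, *HSP104* −0.35, −0.34, −0.038 and −0.34, and *HSP12* −0.47, −0.46, −0.15 and −0.46. In the double mutant against WT, *HSC82* had −0.31, −0.33, −0.13 and −0.33. With total counts left out, where the sign stayed, *SSA1* had −0.060, −0.081 and −0.081 there, *SSA2* 0.13, 0.10 and 0.10 and *HSP26* 0.11, 0.085 and 0.086 against *rrp6∆*, *SSA2* 0.065, 0.044 and 0.044 in *rpb1-84* against WT, and *HSP42* −0.091, −0.11 and −0.11 in the double mutant against *rpb1-84*.

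Among counts of members called, the 1 higher in *rrp6∆* against WT became 0 under all 4 of these settings, with *HSP42* at 0.64, 0.65, 0.96 and 0.65. In the double mutant against WT the 0 lower became 1 under all 4, with *HSP12* at −1.30, −1.32, −1.12 and −1.33. Against *rpb1-84* the 4 higher became 2 except with total counts, and the 0 lower became 3, 3, 1 and 3. By the adjusted p alone the members higher and lower numbered 3 and 2 in *rrp6∆* against WT, 6 and 2 in the double mutant against WT, 5 and 2 against *rrp6∆* and 4 lower against *rpb1-84*. They numbered 5 higher in *rpb1-84* against WT and 4 lower for the difference between its changes without and with Rrp6. Without the filter, with an adjusted p below 0.05, with only the libraries compared and with the replicate block, every count was as reported: under the block 1 and 0 members were called higher and lower in *rrp6∆* against WT and 2 and 0 in the double mutant.

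With each library left out in turn, the members called lower ranged from 0 to 1 in the double mutant against WT, against *rrp6∆* and against *rpb1-84*, and from 1 to 3 for the difference. Log2 fold changes that crossed 0 were in *rrp6∆* against WT those of *HSP104* (−0.0267 to 0.275), *HSP26* (−0.154 to 0.116) and *HSP12* (−0.129 to 0.154), in the double mutant against WT those of *HSC82* (−0.0597 to 0.121) and *HSP26* (−0.184 to 0.0858), and against *rrp6∆* those of *SSA2* (−0.0836 to 0.0533), *HSC82* (−0.0152 to 0.163) and *HSP26* (−0.0757 to 0.0185). The cause was not tested. With 2 cultures a strain, depth limits *SSA4* and *HSP12* in *rpb4∆*, which had 18 to 38 counts.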

Other observations

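Chaperones of other compartments were listed beside the 10 genes. Of 8 mitochondrial chaperones, 0 were called in *rrp6∆* against WT in edgeR, and 5 passed by the adjusted p alone, where 53.6% of ORFs did. Where 6.99% of ORFs were called higher in the double mutant, 2 of the list were. These were *MDJ1*, a J-domain protein of the matrix, with 37.5 and 41.7 normalised CPM in WT, 66.2 and 63.4 in *rrp6∆* and 81.0 and 98.9 in the double mutant, and *HSP78*, the mitochondrial relative of Hsp104, with 22.9 and 23.0, 36.7 and 29.6, and 40.1 and 55.6. With scaling factors from all features neither was called (0.83 and 0.69), and with total counts *MDJ1* was. In *rpb1-84*, *MDJ1* had 12.3 and 14.8 and *HSP78* 7.48 and 5.96, so that both were called lower than in WT (log2 fold changes −1.50 and −1.81), as was *MGE1*, the exchange factor of mitochondrial Hsp70 (−2.998). The list did not move as a whole, since *HSP10*, the mitochondrial co-chaperonin, was called higher (1.36), *SSQ1* (0.90), *SSC1* (0.82) and *HSP60* (0.40) passed on the adjusted p upwards, and the list median was 0.26. *HSP60*, *HSP10*, *SSC1* and *SSQ1* were named after their values were seen.

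Of 10 chaperones of the endoplasmic reticulum, 14 subunits of the chaperonin and prefoldin and 7 ribosome-associated chaperones, 0 were called in *rrp6∆* or in the double mutant against WT, while by the adjusted p alone 6, 9 and 6 passed in *rrp6∆* and 3, 10 and 7 in the double mutant, where 53.6% and 56.9% of ORFs did. With scaling factors from all features 1 of the endoplasmic reticulum and 1 ribosome-associated gene were called lower in *rrp6∆* and 1 chaperonin or prefoldin gene in the double mutant. In *rpb1-84* against WT the counts called higher and lower were 1 and 1 for the endoplasmic reticulum, 4 and 2 for chaperonin and prefoldin and 2 and 0 for ribosome-associated chaperones. There 14.8% of ORFs were called higher and 16.5% lower. With factors from all features the chaperonin and prefoldin counts were 4 and 0. *ZUO1*, a J-domain protein at the ribosome, had 2598 and 2622 normalised CPM in *rpb1-84* against 587 and 603 in WT. The experiment and the TAP tag cannot be told apart from *rpb1-84* in these values. Of 7 stress regulators 0 were called in *rrp6∆* or the double mutant against WT, with 5 by the adjusted p alone in each. Of the ORFs, 7.55% and 6.99% were called higher and 1.35% and 2.65% lower, and 53.6% and 56.9% passed on the adjusted p. *MSN4* had 41 and 29 counts in *rrp6∆* and 17 and 13 in the double mutant, a log2 fold change of −1.03 (edgeR adjusted p = 0.00993). It was the 1 of this list called between these strains, where 1.10% of ORFs were called higher and 2.99% lower. With TMM factors from all features, DESeq2 size factors or DESeq2 it was not called.

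The summed level of the 30 general stress genes was 5573 and 5752 normalised CPM in WT, 4289 and 3954 in *rrp6∆*, 4817 and 4935 in the double mutant, 5047 and 5449 in *rpb1-84* and 1649 and 1712 in *rpb4∆*. One gene, *HOR7*, named after its values were seen, held 2910 and 3048 of the WT sum and had 1897 and 1605 in *rrp6∆*, 1829 and 1878 in the double mutant, 688 and 828 in *rpb1-84* and 493 and 552 in *rpb4∆*, so that its drop from WT to *rrp6∆* made up most of that of the sum, and in *rpb1-84* it was low where the sum was not. The *rpb4∆* strain was low in this sum as well as in *HSP12* and *HSP26*. The background of *rpb4∆* cannot be told apart from the deletion.

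Over the 10 libraries, which group by experiment and strain, the ORFs with a mean of at least 100 counts whose log2 level followed *HSP12* most closely were *MCM3* (r = 0.987), the shared row of *ESL1* and *MCM10* (0.981) and *CLB1* (0.977). For *HSP26* they were *TIM9* (0.99), *HXT4* (0.989) and the shared row of YCL042W and *GLK1* (0.968), for *SSA4* *TRP3* (0.992), *SAS3* (0.985) and *RPB4* (0.984), and for *HSP82* *PKR1* (0.964), *YAR1* (0.964) and *YRB2* (0.938). *RPB4* is the gene that is deleted or tagged in the same strains in which *SSA4* was low. *YAR1* is the ORF next to *HSP82* on chromosome XVI, on the other side of their shared upstream region. Among the 10 genes, the closest pairs were *SSA4* with *HSP12* (r = 0.911) and *SSA1* with *HSC82* (0.896), and the most opposed was *HSC82* with *HSP104* (−0.847). These are descriptions over 10 libraries of 5 strains, which share libraries, scaling and experiment.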
